A study of Equus caballus with 4 samples.

Results

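The troponins are the calcium-sensing proteins of striated muscle thin filaments, and 8 of their genes were examined here for mRNA in differentiating equine satellite cells (ESC). The members are *TNNC1* and *TNNC2*, *TNNI1*, *TNNI2* and *TNNI3*, and *TNNT1*, *TNNT2* and *TNNT3*. They were found by gene name among the probes of a horse array. The column of gene names held 5 of them, and the other 3 (*TNNT1*, *TNNT2* and *TNNI1*) were named only in the column of descriptions. All 8 were represented, by 16 of the 43603 probes, and all 16 probes could be tested. In all, 15537 genes or transcripts were tested.

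The cells came from *semitendinosus* muscle of healthy colts aged 6 months, of which 6 were sampled, and were put into differentiation for 48 h. HMB (*β*-hydroxy-*β*-methylbutyrate), which the body makes from leucine, was then given to the treated cells for 24 h and left out for control cells, and both were collected on day 3 of differentiation. The methods give the dose as 50 µM and the sample description as 50 µg. On each of 4 arrays of 1 slide, RNA of HMB-treated cells carried the dye Cy5 and RNA of control cells the dye Cy3, so that dye and treatment cannot be told apart. Cells of each culture flask were divided between a plate for HMB and a control plate, and the labels call the 4 pairs biological replicates. The sources do not say which colt stood behind which array, or whether the 2 channels of an array came from the same flask.

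Contraction is switched on when calcium binds troponin C, which relieves the block that troponin I places on actin, while troponin T holds the complex on tropomyosin. Each subunit has isoforms of slow skeletal, fast skeletal and cardiac muscle. *TNNC1* serves slow and cardiac fibres, *TNNI1* and *TNNT1* slow fibres, *TNNC2*, *TNNI2* and *TNNT3* fast fibres, and *TNNI3* and *TNNT2* the heart. Developing skeletal muscle is known to co-express slow, fast and cardiac forms before fibres specialise, and differentiating myoblasts switch on troponin genes as they fuse.

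All 8 troponin mRNA were lower in HMB-treated than in control cells. The fall ranged from 1.63-fold (*TNNT2*) to 2.22-fold (*TNNC2*), and slow, fast and cardiac isoforms were all among those that fell. Each of the 32 single values, 8 genes on 4 arrays, was a log2 ratio below 0. All 8 genes passed the threshold of an adjusted *p* of 0.05 (limma, with *p*-values adjusted by Benjamini and Hochberg across the 27384 probes that were tested), where 11.6% of all genes tested passed it in this direction. The median of the 8 mean log2 ratios was −0.87, against 0.02 over all genes tested. In RNA from whole cultures, fewer cells of a type and less RNA per cell cannot be told apart.

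**Figure D1:**
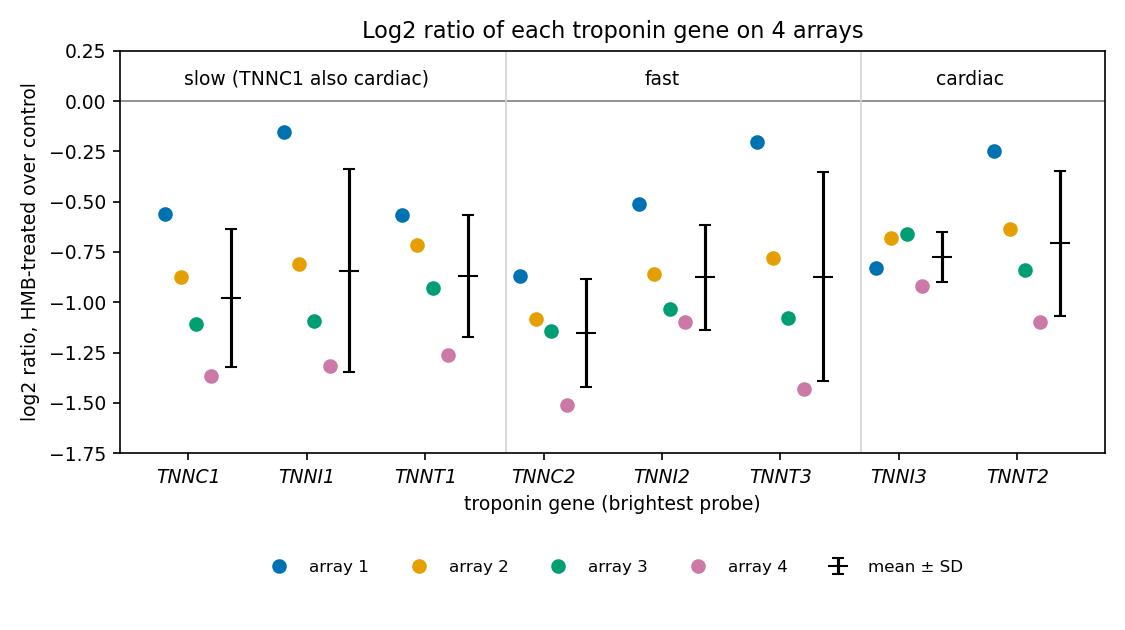
Log2 ratio of HMB-treated over control cells (vertical axis) for the brightest probe of each of 8 troponin genes (horizontal axis), with 1 point per array and the mean ± SD of 4 arrays in black. All 32 points lie below 0, and the point of array 4 is the lowest for each of the 8 genes.

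Troponin C binds the calcium. The fast isoform *TNNC2* had log2 ratios of −0.87, −1.08, −1.14 and −1.51 on arrays 1 to 4. Its control signals were 11399.5, 11844, 10154 and 12141 units, and its HMB signals were 6239, 5596, 4602 and 4253 units. Every HMB signal was below every control signal, and the ratio was lowest on array 4. Signals were normalised within arrays and not between them, so only the ratio compares arrays and an overlap of signals is a description. The mean log2 ratio was −1.15 ± 0.27 (SD, *n* 4), a 2.22-fold fall (limma adjusted *p* = 0.0021). Ordered from the lowest ratio, *TNNC2* ranked 120 of 15537 genes, the lowest place among the troponins.

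The slow and cardiac isoform *TNNC1* had log2 ratios of −0.56, −0.88, −1.11 and −1.37. Its control signals were 36583, 36401, 42439.8 and 45835 units, and its HMB signals 24826, 19842, 19716.5 and 17758 units. The groups did not overlap, and the ratio was nearest 0 on array 1 and lowest on array 4. The mean was −0.98 ± 0.34, a 1.97-fold fall (limma adjusted *p* = 0.0058), and *TNNC1* ranked 200 from the lowest. The size of this fall depended on the dye normalisation: without the lowess step the mean was −0.50, and it still passed the threshold (adjusted *p* = 0.0085; 0.0025 to 0.088 over 16 alternatives).

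The probes of the troponin C genes are shown because they read stretches of 2 related messages, with a whole calcium loop in *TNNC1* and the end of the reading frame in *TNNC2*. In *TNNC1* (transcript ENSECAT00000021693) the probe mapped to chr16:35287316-35287624 of the EquCab1 assembly, plus strand, a span of 309 bases for 60 bases of probe, so it crosses at least 1 exon junction. The capitals mark 36 bases that read as an EF-hand loop, the motif that holds calcium. In *TNNC2* (transcript ENSECAT00000021003) the probe mapped to chr22:34842361-34842734, minus strand, a span of 374 bases. The first 53 of its 60 bases are given, up to the stop codon in capitals, and the rest lie past the reading frame.
TNNC1: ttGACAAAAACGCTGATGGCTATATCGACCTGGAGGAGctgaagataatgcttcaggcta
TNNC2: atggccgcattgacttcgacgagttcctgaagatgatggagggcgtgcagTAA

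Troponin I is the inhibitory subunit. The slow isoform *TNNI1* had log2 ratios of −0.15, −0.81, −1.09 and −1.32. Its control signals were 6678, 6524, 8097.5 and 9741 units, and its HMB signals were 6003, 3724, 3797 and 3909.6 units. The ratio of array 1 stood well nearer to 0 than the other 3, and the groups did not overlap. The mean was −0.84 ± 0.50, a 1.79-fold fall (limma adjusted *p* = 0.023).

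The fast isoform *TNNI2* had log2 ratios of −0.51, −0.86, −1.03 and −1.10. In control cells its signals were 1300.0, 1185, 1339.7 and 1333 units, and in HMB-treated cells 911, 653, 654 and 623 units. The groups did not overlap, and array 1 was again nearest 0. The mean was −0.88 ± 0.26, a 1.84-fold fall (limma adjusted *p* = 0.0044).

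The cardiac isoform *TNNI3* had log2 ratios of −0.83, −0.68, −0.66 and −0.92. This probe was dim, with control signals of 187, 142, 139.8 and 144 units and HMB signals of 105, 88.4, 88.4 and 76.1 units. It was nevertheless well above background in both channels of every array, where the lowest signals so marked were 13.4 to 18.1 units in the control channel and 14.0 to 17.7 units in the HMB channel. *TNNI3* varied least between arrays of the 8 genes, and array 1 was among its lower values, unlike in the other 7. The mean was −0.77 ± 0.12, a 1.71-fold fall (limma adjusted *p* = 0.0020).

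The probes of *TNNI1* (transcript ENSECAT00000017878, chr30:18646529-18647672, minus strand) and *TNNI3* (transcript NM_001081904, chr10:19144347-19144953, minus strand) cover the same stretch of their related messages. They matched at 43 of 60 bases, and they are shown so that the 17 bases at which they differ, in capitals, can be seen. The probe of *TNNI2* (transcript ENSECAT00000016196) lay at 277498650 to 277498815 of the unplaced sequence chrUn and overlapped both over 38 bases, of which 25 matched each of them. How far one isoform's RNA binds another's probe was not tested.
TNNI1: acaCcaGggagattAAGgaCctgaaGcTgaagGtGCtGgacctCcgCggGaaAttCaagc
TNNI3: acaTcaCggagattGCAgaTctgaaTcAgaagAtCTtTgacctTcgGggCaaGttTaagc

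Troponin T anchors the complex to tropomyosin. The slow isoform *TNNT1* had log2 ratios of −0.57, −0.72, −0.93 and −1.26. Its control signals were 10854, 10025, 10045 and 10727 units and its HMB signals 7322, 6099, 5282 and 4469 units. The groups did not overlap, and array 4 lay lowest. The mean was −0.87 ± 0.30, a 1.83-fold fall (limma adjusted *p* = 0.0061).

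The fast isoform *TNNT3* had log2 ratios of −0.20, −0.78, −1.08 and −1.43, the widest spread of the 8 genes. Its control signals were 17841, 18977, 21542 and 26721 units and its HMB signals were 15497, 11069.7, 10187 and 9913 units. The groups did not overlap, with the ratio of array 1 close to 0 and that of array 4 far below it. The mean was −0.87 ± 0.52, a 1.83-fold fall (limma adjusted *p* = 0.022).

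The cardiac isoform *TNNT2* had log2 ratios of −0.25, −0.64, −0.84 and −1.10. Its control signals were 12842, 13991, 15647 and 17356 units and its HMB signals were 10809, 8999, 8729 and 8094 units. As in *TNNT3*, the channels of an array were closest on array 1 and farthest apart on array 4, with no overlap between groups. The mean was −0.71 ± 0.36, a 1.63-fold fall (limma adjusted *p* = 0.017). This was the mean nearest 0 among the troponins, but *TNNI3* took that place with normexp and loess (−0.56, against −0.74 for *TNNT2*) and without array 1 (−0.75, against −0.86).

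**Figure D2:**
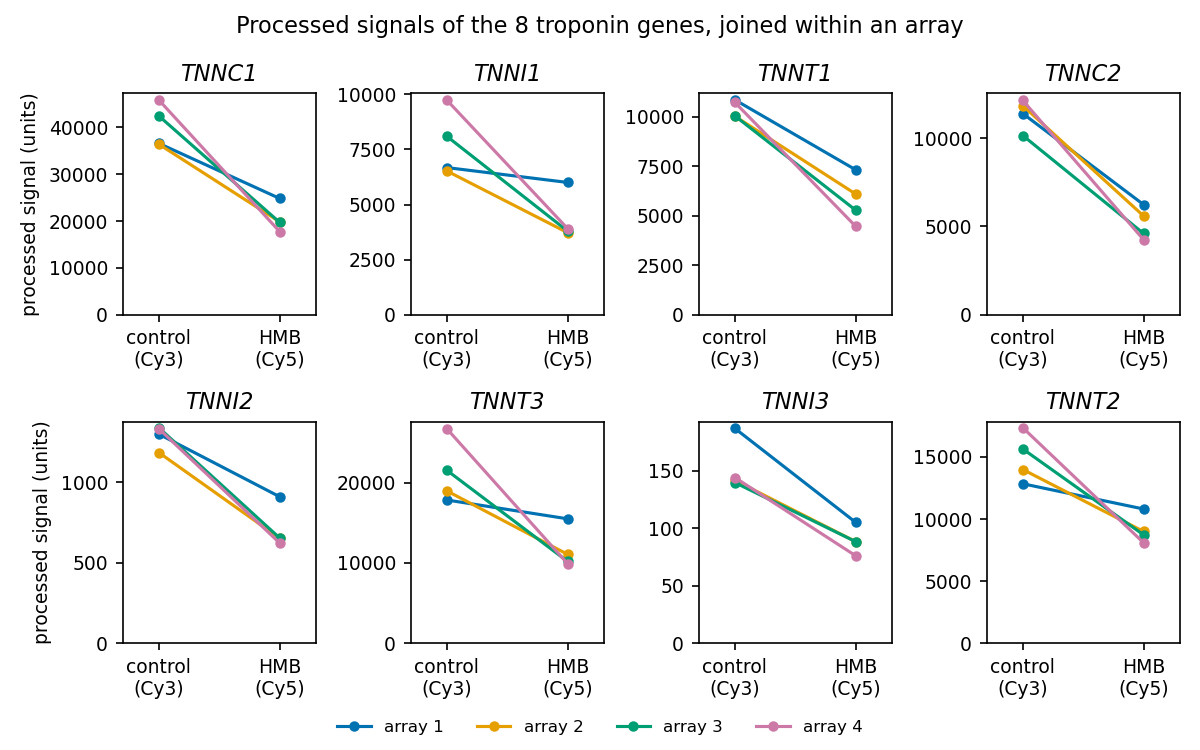
Processed signal in units (vertical axis, from 0, a scale of its own in each panel) of control cells in Cy3 and HMB-treated cells in Cy5 for the brightest probe of 8 troponin genes, with lines joining the channels of an array. All 32 lines slope down, and in each panel the 4 HMB signals lie below the 4 control signals.

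The probes of *TNNT1* and *TNNT3* also cover a shared stretch, with 40 matches over the 57 bases that overlap. They are shown with the 17 differing bases of the overlap in capitals. The *TNNT1* probe (transcript ENSECAT00000016548) mapped to chr10:19130413-19130593, minus strand, over 181 bases, and the *TNNT3* probe (transcript ENSECAT00000025982) to chrUn:277450440-277452351, minus strand, over 1912 bases, so each crosses at least 1 exon junction. The *TNNT2* probe (transcript ENSECAT00000023829, chr30:18601044-18601342, minus strand) matched that of *TNNT1* at 21 of 52 bases at best.
TNNT1: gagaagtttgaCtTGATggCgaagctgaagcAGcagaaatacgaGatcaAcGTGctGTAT
TNNT3: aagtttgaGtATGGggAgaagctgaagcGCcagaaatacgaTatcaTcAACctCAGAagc

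*TNNT1* and *TNNT2* each had 5 probes, which start 1 base apart on the same target and so are not replicates of each other. The 5 probes of *TNNT1* gave mean log2 ratios from −0.90 to −0.87, and the 5 of *TNNT2* from −0.72 to −0.70. Within a gene the probes thus differed far less than the arrays did. All 16 troponin probes passed the threshold as lower, as did 11.6% of all probes tested. The other 6 genes had 1 probe each.

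All 8 troponins had HMB signals that lay wholly below their control signals, as had 9.76% of all genes tested. A Student t-test, which the authors' supplementary material names, takes each probe's spread from its own 4 values. With it, *TNNI3* alone of the 8 passed after adjustment, where 1.45% of genes passed as lower. The adjusted *p* of the 8 in this t-test lay between 0.047 and 0.15. With no filter on dim probes, which raises the number of probes in the adjustment to 43603, *TNNI2*, *TNNI3* and *TNNC2* passed and the other 5 did not. Without array 3, *TNNT2*, *TNNT3* and *TNNI1* no longer passed, and without array 2 or without array 4, *TNNT3* and *TNNI1* no longer passed. All 8 kept their direction in each of these, which could not have come out otherwise. The t-test and the filter leave the mean ratios as they were. Every single ratio was below 0, so leaving out an array could not change the sign.

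The arrays differed in the size of the fall. The median log2 ratio of the 8 troponins was −0.54 on array 1, −0.79 on array 2, −1.06 on array 3 and −1.29 on array 4. The median over all genes tested was between 0.01 and 0.03 on every array. Array 4 held the lowest ratio in all 8 troponins, and array 1 the highest in 7 of them, with *TNNI3* the exception. Array 4 had the widest ratios over all tested probes (SD 0.48, against 0.34 to 0.39 on the others), and 34.4% of all genes tested were lowest on it. Among genes called lower, 53.1% were lowest on array 4 and 46.3% highest on array 1, and their median ratio was −0.40 on array 1 and −0.62 on array 4. All 8 genes passed the threshold without array 1.

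Whether slow and fast isoforms of a subunit differed was asked within each array, as the log2 ratio of the slow minus that of the fast isoform. For arrays 1 to 4, *TNNT1* minus *TNNT3* came to −0.36, 0.06, 0.15 and 0.17 (mean 0.00 ± 0.25, SD, *n* 4; exact sign-flip permutation test, two-sided, *p* = 1). *TNNI1* minus *TNNI2* was 0.36, 0.05, −0.06 and −0.22, a mean of 0.03 ± 0.24 (exact permutation *p* = 0.875). In neither pair did the arrays share a direction. *TNNC1* minus *TNNC2* was 0.31, 0.21, 0.04 and 0.15, a mean of 0.17 ± 0.11, above 0 on 4 of 4 arrays (exact permutation *p* adjusted over the 3 pairs, 0.375). Its unadjusted *p* was the smallest that 4 arrays can give, so no pair could have passed the threshold. The slow isoform of troponin C had the smaller ratio change on every array, by as little as 0.04 on array 3. The difference depended on the normalisation, at 0.49 without the lowess step and 0.27 with normexp background correction and loess. Between the 8 genes the mean log2 ratios spanned 0.44, and the SD between arrays of a single gene ran from 0.12 to 0.52.

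Of the troponin genes, 6 lie in 3 pairs of a troponin I and a troponin T gene, an arrangement that vertebrates share. On EquCab1 the probes of *TNNT1* and *TNNI3* lay 13753 bases apart on chromosome 10, those of *TNNT2* and *TNNI1* 45186 bases apart on chromosome 30, and those of *TNNI2* and *TNNT3* 46298 bases apart on unplaced sequence. A slow gene lies beside a cardiac one in the first 2 pairs and a fast gene beside a fast one in the third, and both genes of each pair fell. *TNNC1* and *TNNC2* lie alone, on chromosomes 16 and 22.

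The genes next to the troponins were mixed. In the RefSeq gene order of the thoroughbred telomere-to-telomere assembly, the genes within the pairs and the 2 on each side came to 23 neighbours, of which 11 were tested, 7 had probes too dim to test and 5 had no probe by name. Of the 11, 3 fell, where 11.6% of all genes tested fell, 1 rose, where 10.9% rose, and 7 did not pass, with a median log2 ratio of 0.03. *LSP1*, a leukocyte protein gene between *TNNI2* and *TNNT3*, had log2 ratios of 0.42, −0.04, 0.07 and −0.03. Those values lay around 0 while both flanking troponins were below 0 on every array. *PPP1R12C* beside *TNNT1* had a mean of 0.03 ± 0.10 and *NISCH* beside *TNNC1* a mean of −0.08 ± 0.11, neither past the threshold. *UBE2C*, a cell cycle gene beside *TNNC2*, had log2 ratios of 0.69, 0.49, 0.00 and 0.52 and rose, at 0.43 ± 0.29 (limma adjusted *p* = 0.044), though array 3 was at 0. *IGF2*, the growth factor gene beyond *TNNT3*, was at 0.08, −0.91, −0.89 and −1.39, so that array 1 was not lower. The 3 that fell were *IGF2* (−0.78 ± 0.62, adjusted *p* = 0.048), *CSRP1* near *TNNI1* (−0.30 ± 0.12, adjusted *p* = 0.027) and *SNX21* beside *TNNC2* (−0.25 ± 0.13, adjusted *p* = 0.048).

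**Figure D3:**
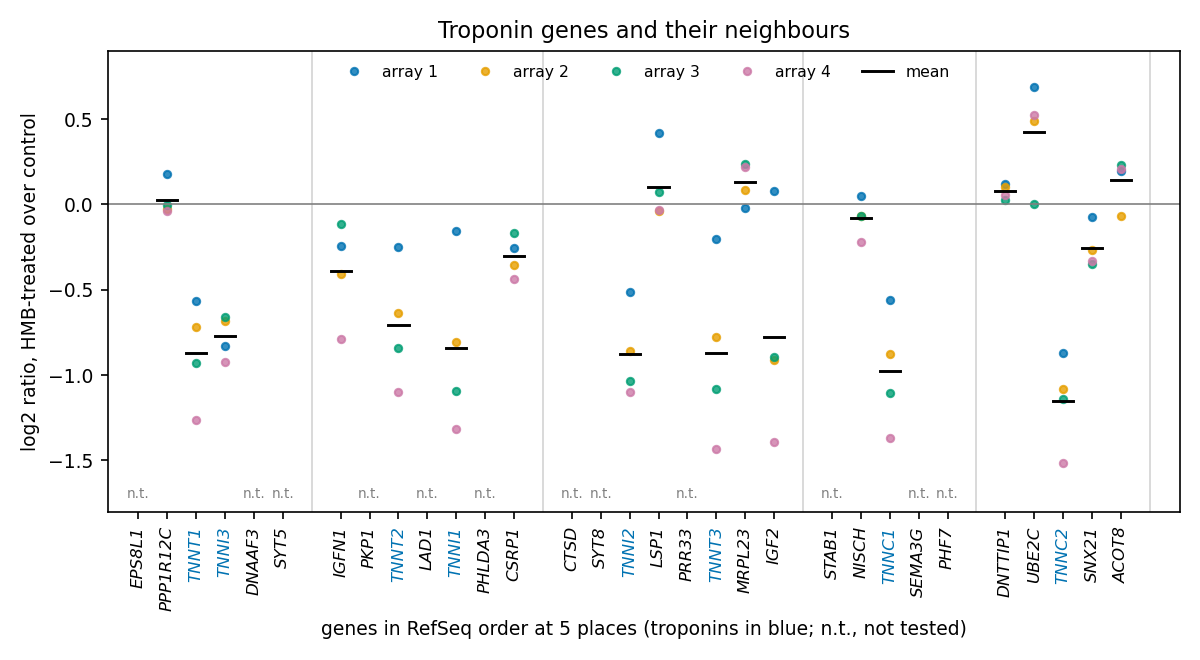
Log2 ratio of HMB-treated over control cells (vertical axis) for troponin genes (blue names) and neighbouring genes in RefSeq order at 5 places (horizontal axis), with 1 point per array and a bar at the mean; n.t. marks genes that were not tested. The 8 troponins lie at means from −1.15 to −0.71, and the 11 tested neighbours at means from −0.78 to 0.43.

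Troponin works with the other proteins of the thin filament, and these genes were less uniform than the troponins. Of 18 listed genes 17 were tested, 9 fell, none rose and 8 did not pass, with a median log2 ratio of −0.48. Over all genes tested, 11.6% fell and 10.9% rose. Skeletal actin *ACTA1* fell (−0.98 ± 0.38), as did nebulin *NEB*, which spans the filament (−0.87 ± 0.53), and leiomodin *LMOD2*, which nucleates actin (−1.17 ± 0.30). These means lay within or close to the range of the troponins, −1.15 to −0.71. The tropomyosins, on which troponin T sits, did not pass. *TPM1* was at −0.48 ± 0.52 (limma adjusted *p* = 0.11), *TPM2* at −0.44 ± 0.35 (limma adjusted *p* = 0.057) and *TPM4* at −0.21 ± 0.12 (limma adjusted *p* = 0.077). *TPM1*, *TPM2* and *TPM4* were nevertheless below 0 on every array, and *TPM2* missed the threshold narrowly. *TPM3* was at 0.25 ± 0.15 by its brightest probe, but its 8 probes ranged from −0.80 to 0.43. The capping protein genes *CAPZA1*, *CAPZA2* and *CAPZB*, which cells of all kinds use, did not pass either.

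The lists of fibre type partners fell on both sides, as the troponins did. Among 9 tested slow partners 7 fell, with a median of −0.90, for example slow myosin *MYH7* (−1.15 ± 0.30) and its light chains *MYL2* (−0.90 ± 0.28) and *MYL3* (−1.03 ± 0.28). Among 8 tested fast partners 7 fell, with a median of −0.72. Examples are the light chain *MYLPF* (−0.79 ± 0.28) and *ACTN3* (−1.01 ± 0.47 by its brightest probe, and −0.52 by the other). Fast myosin *MYH2* is among the 7, but its HMB signal was well above background on 2 of 4 arrays, and it passed the filter through its control signal. With only genes above background in both channels, 6 of 7 fast partners fell, with a median of −0.66. *MYH1*, *MYH4* and *PVALB* of the fast list were too dim to test. Of the pumps that return calcium to the store, slow *ATP2A2* was at 0.07 ± 0.16 and fast *ATP2A1* at −0.61 ± 0.66, neither past the threshold.

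Of the 8 genes of developing muscle 7 fell, with a median of −0.82. Embryonic myosin *MYH3* was at −1.11 ± 0.47, perinatal myosin *MYH8* at −1.93 ± 0.36 and the embryonic light chain *MYL4* at −0.90 ± 0.38. Cardiac actin *ACTC1*, also an actin of fetal skeletal muscle, fell less, at −0.38 ± 0.26. The fusion gene *TMEM8C* (myomaker) was at −0.27 ± 0.26 and did not pass.

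Among regulators known to act on muscle genes, 18 of 20 were tested, of which 11 fell, 1 rose and 6 did not pass, with a median of −0.34. *PROX1*, among the 11, had its HMB signal well above background on 2 of 4 arrays, and with both channels required 10 of 17 fell, with a median of −0.31. The count that fell was 9 without array 1, 4 without array 2, 1 without array 3 and 7 without array 4. Over all probes tested, 2653 of 27589, 1637 of 27522, 1522 of 27493 and 2692 of 28009 were lower in these fits. With all 4 arrays it was 3186 of 27384. Of the myogenic factors, *MYF5* fell most (−1.01 ± 0.18), ahead of *MYOD1* (−0.46 ± 0.24), *MYOG* (−0.42 ± 0.20) and *MYF6* (−0.28 ± 0.16). The value of *MYOD1* is that of its brightest probe, and its other probe had a mean of −0.20. *MEF2C* was at −0.56 ± 0.26 and *TEAD4*, whose family binds the promoters of several troponin genes, at −0.31 ± 0.10. The gene that rose was *TBX15*, at 0.38 ± 0.06. *SRF*, *SOX6* and *NFATC1*, which act in fibre type choice or actin gene control, were at −0.04, −0.03 and 0.11 and did not pass. *VGLL2* fell as well, at −0.84 ± 0.50 by its brightest probe, and its 6 probes ranged from −0.85 to −0.42. Over all lists, 40 of 58 tested partner genes fell and 1 rose, against 11.6% and 10.9% of all genes tested. With both channels required 38 of 56 fell. Genes that stand in more than 1 list (*ACTC1* and *TPM3*) are counted once here. Without array 3 the number of partner genes past the threshold in either direction was 24, against 41. The number of probes past it was then 2705, against 6257.

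**Figure D4:**
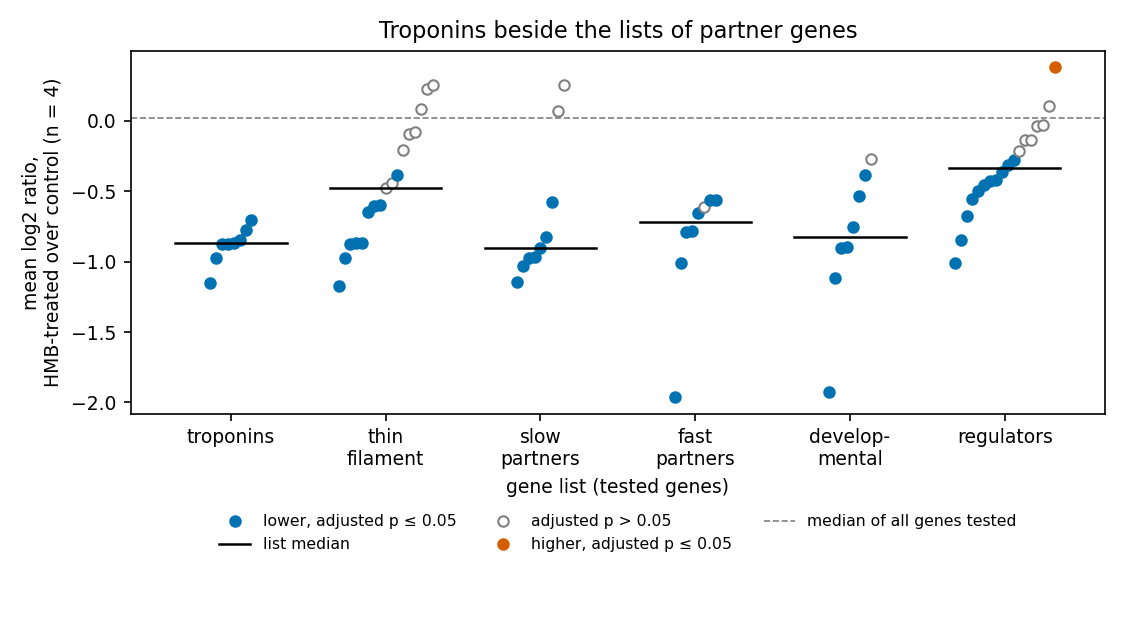
Mean log2 ratio of HMB-treated over control cells (vertical axis, *n* 4) for the tested genes of 6 lists (horizontal axis), filled where the adjusted p was at most 0.05, with a bar at each list's median. The troponins have a median of −0.87, the lists medians from −0.90 (slow partners) to −0.34 (regulators), and the dashed line is the median of all genes tested, 0.02.

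Markers of cell types were examined as ratios of HMB-treated over control cells, which do not show what the cells are. Of the 8 satellite cell and myoblast markers 7 were tested and all 7 fell, where 11.6% of all genes tested fell. They included desmin *DES* (−0.98 ± 0.37), creatine kinase *CKM* (−0.80 ± 0.53) and cadherin *CDH15* (−0.77 ± 0.31). The others, *MYF5*, *MYOD1*, *MYOG* and *CHRNA1*, were already counted above among the regulators or the genes of developing muscle. *PAX7*, which marks satellite cells, was too dim to test. Of 7 tested fibroblast markers none fell, 6 did not pass (median of the list −0.10) and *PDGFRA* rose, at 1.53 ± 0.47. Among all genes tested, 10.9% rose. The 6 that did not pass lay on both sides of 0 by their brightest probes. They were *COL1A1* (−0.54), *COL3A1* (−0.21), *COL1A2* (−0.20), *THY1* (−0.10), *LUM* (0.01) and *DCN* (0.15). The list of myoblast markers had medians of −0.36, −0.73, −0.94 and −1.07 on arrays 1 to 4, and that of fibroblast markers 0.31, −0.20, −0.18 and −0.11. The median of the myoblast list was nearest 0 on array 1 and lowest on array 4, although *MYF5* and *MYOD1* were lowest on array 3. The medians of the troponins and of all genes called lower were placed alike. For all genes called lower they were −0.40 on array 1 and −0.62 on array 4. The part of cell numbers in the troponin values was not tested.

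Markers of the heart were examined because 2 troponins are named for it. *MYH6* (−1.05 ± 0.28 by its brightest probe, and −0.62 by the other) and *RYR2* (−0.73 ± 0.42) fell. *NPPA* and *NPPB* were at 0.17 and 0.16 and did not pass, and *MYL7*, *NKX2-5* and *GATA4* were too dim to test. The cardiac troponin isoforms were thus measured in cells in which neither channel held *NKX2-5* or *GATA4* well above background on all 4 arrays. Of 4 smooth muscle markers only *MYH11* passed, as lower, with its HMB signal above background on 3 of 4 arrays. Of 4 tested leukocyte markers, *CD74* fell, with its HMB signal above background on 1 of 4 arrays, 2 did not pass, and *PTPRC* passed as higher by its brightest probe (0.28 ± 0.13). The 8 tested probes named *PTPRC* lay between −0.48 and 0.37, and whether they read this gene was not tested. None of the 4 endothelial markers was bright enough to test.

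The genes whose ratios over the 4 arrays came closest to those of *TNNC2* were *LMOD2*, *LPHN2*, *IL32*, *FZD10* and *HSPB2*, with root mean square differences of 0.09, 0.10, 0.11, 0.12 and 0.12 on the log2 scale. *LMOD2* had log2 ratios of −0.97, −0.99, −1.11 and −1.62, next to −0.87, −1.08, −1.14 and −1.51 in *TNNC2*. All 5 genes were chosen for this likeness, so the order of their arrays is no separate result. The nearest troponin was *TNNC1*, at a difference of 0.20, which was place 29 among 9484 genes with a symbol. The other 6 troponins stood at places 70 (*TNNT1*) to 215 (*TNNT2*).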

How the data were processed

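RNA was measured on 4 two-colour arrays. The authors scanned them and made the intensities with Feature Extraction, version 10.10.1.1 per the file headers (the methods section names another version). The deposited processed intensities are background-subtracted and dye-normalised, and the deposited ratios are log10 values (HMB in Cy5, control in Cy3) after a linear and lowess step of the authors. Quality marks in the deposited files are 0 or 1. The series matrix values are identical (largest difference 0; median 0 on each array).

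Multiplying by 3.32 put the ratios on the log2 scale. Control spots and spots marked non-uniform or outlying were left out. Tests took probes with the same channel well above background on each of the 4 arrays and at least 3 values. Intercept-only fits used limma 3.58.1 in R 4.3.3 with data.table (1.17.8); summaries and plots used Python 3.11.15, numpy 2.4.6, pandas 2.3.3 and matplotlib 3.10.9. The fit was tested on simulated data. For each gene the tested probe with the brightest mean intensity stands. Signals are normalised within arrays, not between them, and probes are not compared in level. Names came from the gene name column for 24960 probes, from descriptions for 60 and from RefSeq accessions for 881. Positions are those of the files.

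Named genes are the troponins, the partner and marker lists, and the 5 genes nearest in pattern to the troponin of largest change. Members and lists were chosen with earlier results of these data known, and the neighbouring genes after values had been seen. With 4 arrays, precision is limited, and *p*-values measure the spread between arrays. Alternatives were normexp (offset 50) with loess, no lowess, a Student t-test and a robust prior with an intensity trend. Others were separate channels, marked spots kept, no filter, a filter on both channels and the series values. The rest were a 1.3-fold minimum, the mean of a gene's probes, and each array left out. A Student test is named in the authors' supplementary material, while the methods section names no t-test. It was run here on the 4 ratios of a probe.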

Additional observations from a re-analysis of the deposited data

Results flagged for a closer look

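Of 103 named genes and 3 isoform differences, 7 genes had 1 array far from the other 3, by the gap to the nearest array over the whole range, and none of these was a troponin. Chance flags about 1 in 20 such groups. In *MYH7* (gap 0.891 of the range) and *CHRNG* (0.960), array 1 had the smallest fall, with log2 ratios of −0.70 and −0.11, while the other arrays were near −1.3 and −0.7. In *ACTA2* (0.884) and *CNN1* (0.922), array 4 was the lowest, at −1.34 and −1.10. *PTPRC* (0.938) was highest on array 1, at 0.47. *TPM4* (0.861) was closest to 0 on array 3, at −0.03, and *ACOT8* (0.885), near *TNNC2*, was lowest on array 2, at −0.07.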

How the results depend on the processing

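The 8 troponins kept a log2 ratio below 0 under all 16 alternatives run on them. Only the fit without lowess and that with normexp and loess computed the ratios of each array anew. The sign could have changed only there. The other alternatives kept the ratios as they were, or averaged single ratios that were all below 0. All 8 passed the threshold as lower under 11 of the 16 alternatives. With the Student t-test, 1 troponin, 2 partner genes and 768 probes passed, against 8, 41 and 6257 with limma. Before adjustment, all 8 troponins had p at or below its threshold, with at least 1.3-fold, as had 3425 probes. With no filter, which adds dim probes to the adjustment, 3 troponins, 15 partner genes and 3690 probes passed. The plan named the gene name column, and counting only its members gives 5 troponins. The other 3, named only in descriptions, widened that set. The separate count of the 5 was added after seeing the data. Leaving out an array gave 5 to 8 troponins, 24 to 41 partner genes and 2573 to 4957 probes (2573 without array 2, 2705 without array 3).

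Separate channels with no replicate block gave 2226 probes, 26 partner genes and all 8 troponins. With the array as replicate block, the pairing by the shared array, all counts were those of the ratios (6257 probes, 41 partner genes, 8 troponins). A minimum of 1.3-fold left 3863 probes. Without lowess, 3198 probes were lower and 4632 higher, against 3186 and 3071, and *TNNC1* minus *TNNC2* was 0.49 in place of 0.17. The cause was not tested. Signal over background limits what dim probes can show. *TNNI3*, whose probe was dim, passed under all 16.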
